A study of Mus musculus with 15 samples.

Results

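The comparison described here set the lungs of 5 mice ventilated for 6 h with air that held 80 ppm hydrogen sulfide (H2S) against the lungs of 5 control mice that breathed synthetic air on their own for 6 h. The 10 arrays were chosen by their treatment group label out of 15 arrays in the series, and the remaining 5 came from mice ventilated for 6 h with synthetic air alone. All mice were male C57BL/6N animals of 24 to 26 g under ketamine and acepromazine anaesthesia, and all of them, the controls included, had an arterial line and a tracheal tube. The ventilator ran at a tidal volume of 12 ml/kg, 80 to 90 breaths per min and an end-expiratory pressure of 2 cm H2O. H2S-ventilated mice differed from controls in both the ventilator and the gas, so the values below carry both, and the air-ventilated mice are used to show where the gas groups differed from each other. Arrays of mice that breathed H2S spontaneously were not analysed here. RNA came from the whole inferior right lobe, after lavage fluid had been collected from the animals. Each value is thus a mixture of the cells left in the lobe, without cells taken with the lavage fluid. The table held 28361 probes (transcript clusters), of which 21780 carried 1 gene symbol, together 19934 genes.

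Stretch of the lung by a ventilator deforms epithelium, endothelium and fibroblasts, and such cells are known to answer with early transcription factors, stress proteins and inflammatory mediators. H2S is a gas that cells make from cysteine, oxidise in mitochondria and sense partly through reactive thiols, and inhaled H2S is known to lower metabolism in mice. Heat shock proteins hold damaged proteins in solution, Nrf2 target genes make glutathione and detoxifying enzymes, and the Atf4 pathway answers to amino acid and protein folding stress. The lung also holds a pool of lymphocytes and a dense capillary bed whose transcripts are read along with those of the epithelium.

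Gene expression was compared on the log2 scale of the deposited intensities, with limma across all probes and Benjamini-Hochberg adjustment. A probe counted as called when its p did not exceed 0.005, its adjusted p did not exceed 0.1 and its fold reached 1.7. Between H2S ventilation and control 410 of 28361 probes were called (1.45%), 186 higher (0.656%) and 224 lower (0.79%). Among the probes with 1 symbol 357 were called (1.64%), 164 higher (0.753%) and 193 lower (0.886%), and 75 of the 193 were probes of a single gene, Hmcn1. Counted by gene, 159 genes were higher and 107 lower. The groups did not overlap in 329 of the 357 called probes, against a background of 9.45% of the probes with 1 symbol. The 357 were picked by p and fold in these same mice, which by itself raises that count, and many were probes of Hmcn1. Median intensities were 184 to 187 on the control arrays and 179.8 to 185 on the H2S arrays, and arrays of a group correlated at 0.984 to 0.994. Labels hold running numbers of unstated meaning in 2 sets, 1 to 12 with 3 mice a group and 20 to 28 with 2 mice a group, and 1775 probes differed between these sets. Within the sets 557 probes were called in the first and 9 in the second. The difference from control varied in size between the sets at an unadjusted p under 0.05 for 124 of the 410 called probes and 1123 of all 28361, and for 0 probes after adjustment. Doc2b, a calcium sensor of secretion, stood at 2.35 in the first set and 1.08 in the second, and Aplnr, a receptor of endothelium, at -2.2 and -1.08.

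For gene lists, a member counted as higher or lower once its adjusted p fell under 0.05, whatever its fold, and 1 probe stood for each gene. The same holds for each gene said below to have risen or fallen. By that reading 933 of 19934 genes were higher (4.68%) and 811 lower (4.07%), with a median log2 fold change of -0.00375 over all genes. Below, a list with a share of members near these percentages is no result about the list. A larger share is no test of it either, because members and lists were chosen with earlier results of these data known. Counts of list members at an unadjusted p under 0.05 stand beside 5869 of all 28361 probes. Those with CyberT, the regularised test of the study's methods, stand beside 2616 of the same probes at an adjusted p under 0.05.

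Among the stress chaperones Hspa1a, an inducible 70 kDa heat shock protein that refolds damaged proteins, had the largest rise of all named genes. Its intensity was 639.6, 466, 387, 365 and 217 in the 5 controls. It was 1743, 7462, 7097, 2479 and 2742 in the 5 H2S-ventilated mice. Every H2S value lay above every control value, and the highest belonged to the mice with running numbers 20 and 28. The log2 fold change was 3.21 ± 0.38 (SE, n = 5 and 5, limma adjusted p = 0.000214), a fold of 9.28, and it was 2.87 in the set 1 to 12 and 3.74 in the set 20 to 28. In the air-ventilated mice Hspa1a lay at 353 to 755, overlapping the controls, and the difference from air was 2.87 (adjusted p = 0.00327). The neighbouring gene Hspa1b has 247 of 250 equal bases before the start. Transcript and probe sequences were not compared, so whether Hspa1b adds to the signal of this probe was not tested.

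Of 16 chaperones of the HSP70, HSP40 and HSP90 families 4 rose and 0 fell, with a list median of 0.346. Dnajb1, an HSP40 that hands clients to HSP70, ran from 303 to 471 in controls and from 739.5 to 1559 with H2S, and differed from control by 1.48 ± 0.15 (adjusted p = 8.9e-05). Hsph1, an exchange factor for HSP70, rose by 0.94 and Hsp90aa1, the inducible HSP90, by 0.61 (adjusted p = 0.0196 and 0.0142). Of 8 small heat shock proteins and BAG cochaperones 4 rose, among them Hspb1 by 1.45 and Hspb8 by 1.03, both of which keep unfolded proteins from clumping. The cochaperone Bag3 rose by 0.43 although its groups overlapped. With mice left out 1 at a time, here and for the genes below, Hsph1 no longer passed without the H2S mouse with running number 28 or the controls with numbers 25 and 9 (adjusted p = 0.0559, 0.0556 and 0.0509), nor Bag3 without the H2S mice 28 and 8 or the controls 9 and 5 (0.0538 to 0.0636). With H2S, Hspb1 and Hspb8 lay at 2572 to 4725 and 2397 to 3227, all above their control values.

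Promoter sequences are printed for 5 genes that rose and held a searched motif, the 250 bases before the start from RefSeq on GRCm38.p6, written 5′ to 3′ on the strand of the gene and with the searched letters in capitals. For Hspa1a (chr17:34972157-34972406, minus strand) the capitals mark the heat shock element core GAANNTTC. For Atf3 (chr1:191183334-191183583, minus strand), Plk3 (chr4:117133964-117134213, minus strand) and Ppargc1a (chr5:51567726-51567975, minus strand) they mark the cAMP response core TGACGT, read on either strand. For Ciart (chr3:95882229-95882478, minus strand) they mark the E-box CACGTG, which occurred 3 times. Searched in the same way, both windows of Dnajb1 held 0 matches of GAANNTTC and that of Ptgs2 held 0 of TGACGT, and their sequences are not shown.
Hspa1a: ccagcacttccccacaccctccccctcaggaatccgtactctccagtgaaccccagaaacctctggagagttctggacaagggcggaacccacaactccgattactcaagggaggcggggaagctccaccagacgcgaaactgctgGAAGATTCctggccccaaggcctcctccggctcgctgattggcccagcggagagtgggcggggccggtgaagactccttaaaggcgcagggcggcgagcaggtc
Atf3: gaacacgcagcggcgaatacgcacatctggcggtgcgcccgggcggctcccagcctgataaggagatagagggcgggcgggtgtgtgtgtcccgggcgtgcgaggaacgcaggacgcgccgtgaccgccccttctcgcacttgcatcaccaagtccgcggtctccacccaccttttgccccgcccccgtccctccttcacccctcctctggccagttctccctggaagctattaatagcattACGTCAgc
Plk3: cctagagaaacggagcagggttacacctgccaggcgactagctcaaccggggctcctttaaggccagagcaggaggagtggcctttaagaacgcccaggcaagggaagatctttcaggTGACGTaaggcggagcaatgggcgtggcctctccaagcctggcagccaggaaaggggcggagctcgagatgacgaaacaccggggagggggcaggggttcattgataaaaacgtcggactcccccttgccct
Ppargc1a: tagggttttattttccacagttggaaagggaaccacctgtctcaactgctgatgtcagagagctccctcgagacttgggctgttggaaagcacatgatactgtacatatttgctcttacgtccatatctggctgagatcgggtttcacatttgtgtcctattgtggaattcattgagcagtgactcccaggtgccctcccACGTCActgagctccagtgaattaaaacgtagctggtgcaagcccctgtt
Ciart: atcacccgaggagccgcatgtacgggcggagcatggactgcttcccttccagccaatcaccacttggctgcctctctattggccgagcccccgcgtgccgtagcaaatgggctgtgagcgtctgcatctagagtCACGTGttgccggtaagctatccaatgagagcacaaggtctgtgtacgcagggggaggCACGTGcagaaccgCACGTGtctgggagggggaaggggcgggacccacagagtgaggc
The letters of these motifs are common. On either strand GAANNTTC occurred in 6.69% of 32851 such windows, TGACGT in 6.47% and CACGTG in 6.02%. Of 127 called higher genes with a window, 5 held GAANNTTC (3.94%), 13 TGACGT (10.2%) and 16 CACGTG (12.6%), beside 6.87%, 8.96% and 8.11% of 15611 measured genes. The antioxidant response core TGACNNNGC stood in 17 of the 127 (13.4%) beside 12.5% of measured genes, and the interferon-stimulated response element core in 9 (7.09%) beside 3.4%. Of 77 called lower genes with a window, 3 held GAANNTTC (3.9%), 3 TGACGT (3.9%) and 7 CACGTG (9.09%). The antioxidant core stood in 14 of the 77 (18.2%) and the interferon core in 4 (5.19%). A match is a description of letters and not a binding site.

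Genes of the Nrf2 pathway moved together: 15 of 21 measured members rose and 0 fell, with a list median of 0.84. Osgin1, an oxidative stress inhibitor of growth, measured 514, 447, 389, 343 and 291 in controls and 971, 2078, 2752, 1429 and 1186 with H2S, which did not overlap. Its log2 fold change was 2.01 ± 0.25 (adjusted p = 0.000259). Slc7a11, the cystine carrier that feeds glutathione synthesis, was 739, 451, 134, 172 and 247 in controls and 1123, 1788, 2848, 1154 and 1171 with H2S. It rose by 2.40 ± 0.48 (adjusted p = 0.00523), and its control values were the most scattered of the group. Hmox1, which breaks down haem, rose by 1.61, and Srxn1, which restores oxidised peroxiredoxins, by 1.51. Gclc, the first enzyme of glutathione synthesis, rose from 2812 to 4121 in controls to 6101 to 8203, a log2 fold change of 1.08, and Txnrd1, which reduces thioredoxin, by 0.84.

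The Atf4 list had 10 of 22 members higher and 0 lower. Chac1, which degrades glutathione, lay at 261 to 318 in controls and 511 to 884 with H2S, a rise of 1.10 ± 0.15 (adjusted p = 0.000507). Atf4 itself and its target Trib3 each rose by 0.56, and Sesn2, a stress-induced brake on growth signalling, by 0.77. The chaperones of the endoplasmic reticulum went both ways, with 2 of 16 higher and 4 lower. Herpud1, a part of the degradation machinery, rose by 0.48, while Calr and Pdia4, which fold newly made proteins, fell by 0.36 and 0.45. Of 9 measured enzymes that make or oxidise sulfide, only Cth, which makes H2S from cysteine, passed the test, with a rise of 0.56 (adjusted p = 0.0045).

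Ppargc1a, a coactivator that drives mitochondrial and oxidative gene programmes, rose more than any gene but Hspa1a and Slc7a11. Its intensity was 231, 229, 229, 252 and 194 in controls, and 1389.8, 708, 934, 1731 and 1199 with H2S. The groups lay far apart, at a log2 fold change of 2.33 ± 0.18 (adjusted p = 4.67e-06). It was the only member of 12 measured in its list to pass. None of 19 subunits of complex I of the respiratory chain passed with limma (1 at an unadjusted p under 0.05, 0 with CyberT, the regularised test of the study's methods), and their median was -0.0146. Of 16 PPAR targets 8 were higher and 0 lower, with a list median of 0.366 beside 0.168 in the air-ventilated mice. Of the 16, 0 differed between H2S and air ventilation at an adjusted p under 0.05. Pdk4, which holds pyruvate back from oxidation, rose by 1.44, Angptl4, an inhibitor of lipoprotein lipase, by 0.93, and Lpl, the lipase itself, by 0.84. Lpin1, which works in both fat synthesis and transcription, rose by 0.80. With air ventilation Angptl4 lay 0.91 above the same controls, and the ventilated groups differed by 0.02 (adjusted p = 0.997). Whether the rises of PPAR targets follow from that of Ppargc1a was not tested.

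**Figure D1:**
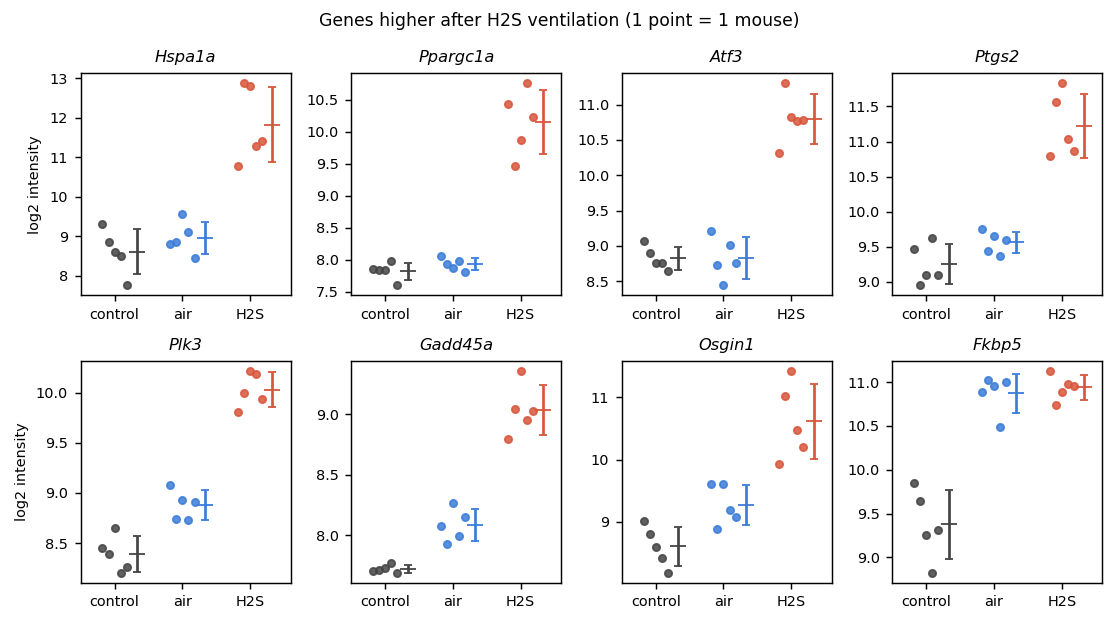
Log2 intensities of 8 genes in each mouse, by group (control, air ventilation, H2S ventilation), with the mean and SD beside the points. In Hspa1a, Ppargc1a, Atf3, Ptgs2, Plk3, Gadd45a and Osgin1 the H2S mice lay above the air mice, while Fkbp5 was at a like level in both ventilated groups.

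Early transcription factors of the AP-1 and CREB families rose in 10 of 15 cases and fell in 0, with a list median of 0.666. Atf3, a stress-induced repressor, was at 537, 479, 432, 434 and 401 in controls and at 1265, 2527, 1819, 1747 and 1759 with H2S. All H2S values were above the controls, with a log2 fold change of 1.97 ± 0.16 (adjusted p = 8.22e-06). Maff and Mafk, small partners of Nrf2 and AP-1, rose by 1.81 and 0.68 and Jun, an AP-1 subunit, by 0.60. Of the Egr, Nr4a, Ier, Klf and Myc early genes 9 of 20 rose, led by Myc, a driver of growth, with 1.34, and by Ifrd1, a transcriptional coregulator, with 1.09. Klf6 rose by 0.69 and Phlda1 by 1.07.

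Feedback inhibitors of MAP kinase signalling were also higher, in 6 of 15 cases. Spry4, an inhibitor of receptor signalling, rose by 1.06 ± 0.16 (adjusted p = 0.0012). The phosphatase genes Dusp4 and Dusp16 rose by 0.75 and 0.50. Of 12 EGF family ligands, receptors and sheddases 4 were higher and 1 lower, with the ligands Nrg1 and Btc up by 0.60 and 0.41 and the sheddase Adam17 down by -0.38.

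Genes of growth arrest were higher in 10 of 18 cases. Their list median of 0.378 stood beside 0.408 in the air-ventilated mice, set against the same controls. Of the 18, 2 differed between H2S and air ventilation at an adjusted p under 0.05. Plk3, a kinase that answers to stress and DNA damage, measured 349, 335, 403, 295 and 306 in controls and 897, 1026, 1191, 1169 and 981 with H2S. Its rise of 1.64 ± 0.10 had the smallest adjusted p of all named genes (1.2e-06). Gadd45a, which slows the cell cycle after stress, lay at 208, 210.3, 212, 219 and 207 in controls, the tightest control values of any gene described here. It lay at 445, 526, 656, 494 and 521 with H2S, a rise of 1.31 ± 0.09 (adjusted p = 3.18e-06). Sfn, a 14-3-3 protein of epithelium, rose by 1.77 at the probe with the smallest p. Of 16 genes of the Bcl2 family and the inhibitors of apoptosis 2 rose, the survival genes Bcl2l1 by 0.57 and Mcl1 by 0.35. None of 20 cell cycle genes passed with limma (3 at an unadjusted p under 0.05, 0 with CyberT).

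The glucocorticoid-induced genes had the largest share of members higher among the lists of rising genes, 18 of 21 with 0 lower and a median of 0.928. Fkbp5, a brake on the glucocorticoid receptor, was at 921, 798, 613, 454 and 638 in controls and at 2243, 1709, 1896, 2014 and 1998 with H2S. It rose by 1.56 ± 0.16 (adjusted p = 6.67e-05) and the groups did not overlap. Mt1 and Mt2, which bind zinc and other metals, rose by 1.54 and 1.48, and Tat, a tyrosine-degrading enzyme outside the list, by 1.54. Fam107a rose by 1.25. With air ventilation Fkbp5 lay 1.49 above the same controls, and the 2 ventilated groups differed by 0.07 (adjusted p = 0.997). The list median of 0.928 stood beside 0.886 in the air-ventilated mice, which were set against the same 5 control mice.

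Clock genes were changed in 14 of 18 cases, 13 higher and 1 lower. Ciart, a repressor of the clock activators whose promoter is printed above, was at 508, 429, 455, 363 and 347 in controls and at 2331, 864, 1173, 2336 and 838 with H2S. It rose by 1.71 ± 0.28 (adjusted p = 0.0015), and the spread among H2S mice was wide although no value reached the controls. Noct, a rhythmic enzyme named nocturnin, rose by 1.28 and Bhlhe40, a repressor that also answers to low oxygen, by 1.36. Cry1, a core repressor, rose by 0.73. Of 22 hypoxia-inducible genes 10 rose and 0 fell, including Bnip3, a mitophagy receptor, by 1.23, Slc2a1, a glucose carrier, by 0.79 and Hk2, the first enzyme of glycolysis, by 0.66.

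Genes of coagulation were higher in 5 of 14 cases. F3, tissue factor, which starts clotting, ran from 1236 to 1440.2 in controls and from 3109 to 4651 with H2S, a rise of 1.49 ± 0.12 (adjusted p = 7.12e-06). Plat and Plaur, the tissue plasminogen activator and the urokinase receptor, rose by 1.09 and 0.78. Among 24 genes of vessel growth and tone 7 were higher and 6 lower. Pgf, a ligand of the VEGF family, rose by 0.95 and Apold1, an early gene of endothelium, by 1.09.

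Some genes of endothelium were lower. Aplnr, the apelin receptor, was at 1094, 1051, 1373, 1447 and 1114 in controls and at 234, 681, 377, 287 and 340.1 with H2S. It fell by 1.75 on the log2 scale (SE 0.27, adjusted p = 0.00118), without overlap, and the least affected of the H2S mice was that with running number 20. Kdr, the main VEGF receptor, fell by 0.83 and Pcdh12, an endothelial cadherin, by 0.83. Gja5, a gap junction protein of arterial endothelium, fell by 1.03. Of 23 lung endothelial genes 7 were lower and 1 higher, with a median of -0.135. In a whole lobe, fewer cells of a type and less RNA per cell cannot be told apart. Hes1, a Notch target, rose by 0.74, and in all 2 of 14 Notch genes were higher and 1 lower.

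**Figure D2:**
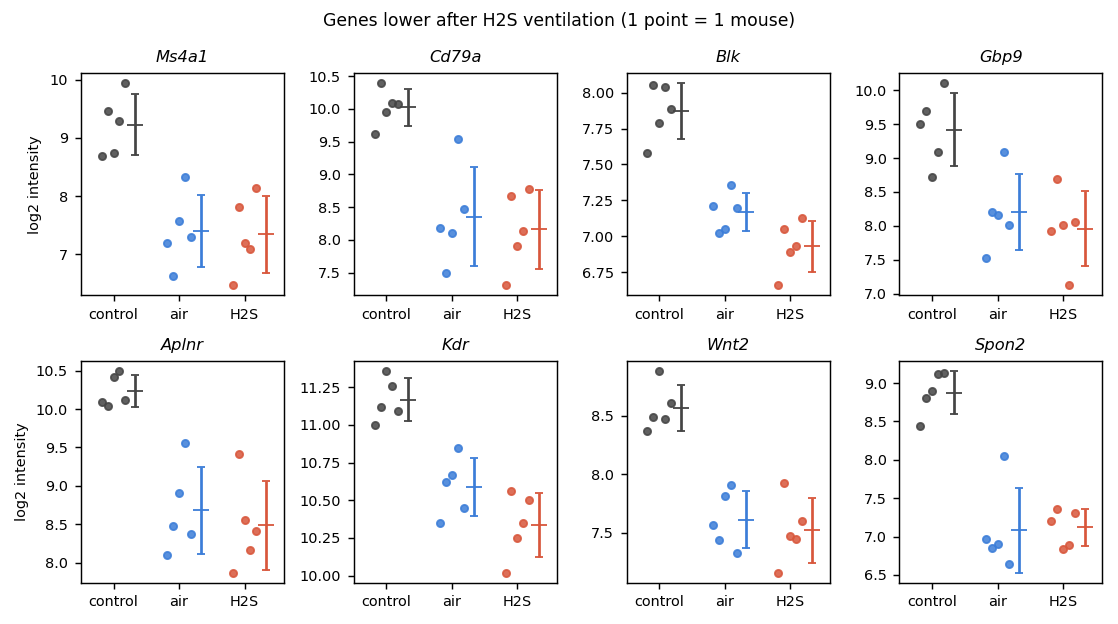
Log2 intensities of 8 genes in each mouse, by group, with the mean and SD beside the points. Ms4a1, Cd79a, Blk, Gbp9, Aplnr, Kdr, Wnt2 and Spon2 were lower in every H2S mouse than in every control.

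Genes of the mesenchyme and of the Wnt pathway were lower more often than higher. Of 23 Wnt ligands, receptors and antagonists 7 fell and 2 rose. Wnt2, a ligand made by lung fibroblasts, ran from 331 to 472 in controls and from 143 to 243 with H2S, and fell by 1.04 on the log2 scale (SE 0.14, adjusted p = 0.000518). The receptor gene Fzd2 fell by 0.73, whereas Nkd2, an antagonist inside the cell, rose by 1.01. Of 20 fibroblast, pericyte and smooth muscle genes 6 fell and 0 rose, with Cdh11, an adhesion protein of fibroblasts, lower by -0.97. Ccn5, an antagonist of matrix-bound growth factors, fell by 0.95. Bmp6, a ligand of endothelium, fell by 0.68, and Fst, which traps activin, rose by 0.82, in a list of 22 TGF-beta, BMP and activin genes with 2 higher and 2 lower.

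Several genes with the largest falls have no list here. Spon2, a matrix protein, was at 347, 446, 476, 556 and 563 in controls and at 147, 164, 114, 119 and 158 with H2S, and fell by 1.76 on the log2 scale (adjusted p = 0.000262). Gfra2, a coreceptor for neurturin, fell by 1.46, and Scn3a, a sodium channel, by 1.33. Hmcn1, a giant matrix protein, fell by 1.33 at its leading probe, and 75 of its 77 probes were called lower. Slc7a10, a carrier of small amino acids, fell by 1.28, Colq, which anchors acetylcholinesterase, by 1.24 and Fgfr4, a growth factor receptor, by 1.20. Slitrk6 fell by 1.32 from low intensities of 55.1 to 76.8, and Tnfsf10, the death ligand TRAIL, by 1.53 from 1286 to 1749 in controls to 339.7 to 967.

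Matrix-modifying genes went both ways. Mmp8, the neutrophil collagenase, measured 1059, 895, 398, 469 and 778 in controls and 1915, 2497, 3484, 2164 and 3209 with H2S. It rose by 1.94 ± 0.26 (adjusted p = 0.000452), and the groups did not overlap. Mmp11, a stromal protease, fell by 0.89, and the inhibitors Timp1 and Timp3 rose by 0.70 and 0.55. Of 18 genes of this family 3 were higher and 3 lower. Lox, which crosslinks collagen, rose by 1.35 from 872 to 1764 in controls to 2583 to 3436, one of 2 of 18 collagen and elastic fibre genes to pass, both higher. Has1, a hyaluronan synthase, rose by 0.95, and of 14 YAP and matricellular targets 4 were higher and 2 lower.

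Among epithelial genes Cldn4, a sealing claudin of stressed alveolar epithelium, lay at 248 to 381 in controls and 547 to 967 with H2S, a rise of 1.38 ± 0.25 (adjusted p = 0.0026). Cldn12 rose by 0.47, and 3 of 15 tight junction genes were higher. The potassium channel genes Kcnk1 and Kcnj2 rose by 1.07 and 1.11, and Atp1b1, a subunit of the sodium pump, by 0.42. In all 3 of 14 ion and fluid transport genes were higher and 2 lower. Of 16 alveolar type II genes 1 was higher, the surfactant protein gene Sftpd by 0.32, and 2 lower, among them Lpcat1, which makes surfactant lipid, by -0.49. Of 15 alveolar type I genes 2 fell, with Akap5 at -0.70. Of 15 airway genes Dnah5, a motor of cilia, was lower by -0.54.

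Among genes outside these groups, Pmvk, an enzyme of cholesterol synthesis, rose by 1.77 ± 0.21 (adjusted p = 0.000232) from 304 to 356 in controls to 904 to 1406 with H2S. Slc38a4, an amino acid carrier, rose by 1.54. Of 17 genes of foreign compound metabolism 3 were higher, with Tiparp, a target of the aryl hydrocarbon receptor, at 0.62 and Cyp2b10, a cytochrome P450, at 0.46, and Fmo1 was lower at -0.34. Fmo1 passed with all mice (adjusted p = 0.0443) but not without the H2S mice with running numbers 12, 8 and 4 or the controls 25, 1, 9 and 5 (0.076 to 0.104). None of 14 muscle genes passed with limma (2 at an unadjusted p under 0.05, 0 with CyberT), and none of 7 erythroid and plasma protein genes (1 at an unadjusted p under 0.05, 1 with CyberT).

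Of 25 cytokines and chemokines 3 were higher. Il1f9, an epithelial member of the interleukin-1 family, rose by 1.42 ± 0.19 (adjusted p = 0.000384) and Ccl9 by 0.70. Ptgs2, the inducible enzyme of prostaglandin synthesis, was at 709, 495, 549, 793 and 549.7 in controls and at 1769, 3009, 3649, 2111 and 1858 with H2S. It rose by 1.97 ± 0.19 (adjusted p = 3.59e-05), while the receptor genes Ptger1 and Ptgfr fell by 0.48 and 0.40. Ptgfr did not pass without the H2S mice with running numbers 12 and 4 (adjusted p = 0.0547 and 0.0562), nor Ccl9 without the control 9 (0.0512). Socs3, which ends interleukin signals, rose by 1.13, and 9 of 18 genes of its list were higher. Of 16 genes that restrain inflammation 6 were higher, with the decoy receptor Il1r2 at a fold of 2.82 and Bcl3 at a fold of 1.74. Serpina3n, a protease inhibitor, rose by 0.84.

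Leukocyte markers were counted by cell type in the lobe RNA, which lacks cells taken with the lavage fluid. Of 16 neutrophil genes 5 were higher, among them Retnlg by 1.23 and Lcn2 by 0.57, and the mean log2 level of the list was 8.62 to 9.37 in controls and 9.11 to 9.80 with H2S, with overlap. Of 12 alveolar macrophage markers 5 were higher, including the macrophage receptor Mrc1 by 0.53, Krt79 by 0.66 and Pparg, a regulator of macrophage and fat genes, by 0.45. Of 11 monocyte markers 3 were lower, with Cx3cr1, a patrolling monocyte receptor, at -0.66 and Cd300e at -0.59. Of 14 dendritic and mast cell markers 4 were lower, including Kit at -0.47 and the mast cell gene Cpa3 at -0.73. In controls Kit lay at 1927 to 2158 and Cpa3 at low intensities of 50.9 to 72.0. Whether the fall of Kit came from mast cells was not tested. Of 12 leukocyte adhesion molecules only Itgal, an integrin of leukocytes, was lower, by -0.62, and not so without the H2S mice with running numbers 12, 28 and 8 or the controls 25, 9 and 5 (adjusted p = 0.0552 to 0.079).

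B cell markers were lower in 17 of 18 cases, the most complete list in the comparison, and 16 of the 18 had every H2S mouse below every control. Ms4a1, the B cell surface protein CD20, was at 411, 706, 429, 629 and 979.8 in controls and at 88.6, 226, 147, 136 and 282 with H2S. It fell by 1.88 on the log2 scale (SE 0.33, adjusted p = 0.00267). Cd79a, a signalling chain of the B cell receptor, was at 786, 1345, 992, 1091 and 1073 in controls and at 158, 409.6, 241, 281 and 440.1 with H2S, and fell by 1.86. Blk, a kinase of B cells, had the smallest adjusted p of the list (0.000174), with a fall of 0.94. Bank1, Fcer2a, Fcmr and Spib fell by 1.66, 1.55, 1.47 and 1.43, and Cd79b, the partner of Cd79a, by 1.23. Ly6d and Cd180, which are also made by B cells, fell by 1.20 and 1.13, and Cd180 did not pass without the H2S mice with running numbers 12 and 8 or the controls 25 and 5 (adjusted p = 0.0505 to 0.0527). The mean log2 level of the list was 8.09 to 8.80 in controls and 6.94 to 7.73 with H2S. Of 19 T and NK cell markers only Cd2 was lower (-0.63, adjusted p = 0.0385). Without any 1 mouse but the controls with running numbers 21 and 5, Cd2 did not pass (adjusted p = 0.0502 to 0.0989). The T and NK mean level was 7.97 to 8.53 in controls and 7.33 to 8.14 with H2S. Whether fewer B cells in the lobe account for any other change was not tested.

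Interferon-related genes had a wide spread among the controls. Of 8 interferon-gamma-induced GTPases, which attack vacuoles that hold microbes, 4 were lower, and the median was -1.2. Gbp4 was at 1339, 2025, 615, 652 and 2348 in controls and at 322, 827, 332, 120.2 and 315 with H2S, and fell by 1.92 with overlap (SE 0.52, adjusted p = 0.0327). Without any 1 mouse but the H2S mouse with running number 20 or the controls 1 and 9, Gbp4 did not pass (adjusted p = 0.0612 to 0.0862). Gbp9 fell by 1.46 without overlap. All 25 interferon-stimulated genes had values below 0, with a median of -0.706 and a range from -1.15 to -0.231, none passed with limma, 16 were at an unadjusted p under 0.05 and 18 passed with CyberT. Their mean level ran from 8.53 to 10.46 in controls and from 8.36 to 9.33 with H2S, so the groups overlapped. Of 12 immunoproteasome and class I genes 4 were lower, including Psme2 at -0.53 and Psmb10 at -0.60. Of 10 MHC class II genes 4 were lower, including H2-Ob at -1.09 and H2-Eb2 at -0.88, both of which B cells also express.

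**Figure D3:**
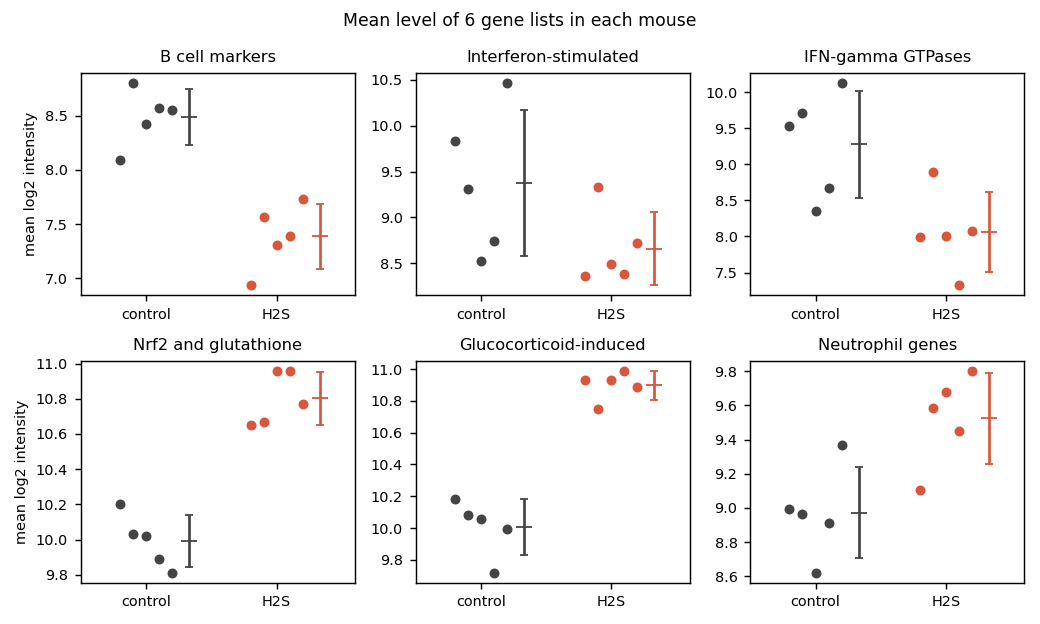
Mean log2 intensity over the measured members of 6 gene lists in each control and H2S-ventilated mouse, with the mean and SD beside the points. B cell, Nrf2 and glucocorticoid levels separated the groups, whereas the interferon, GTPase and neutrophil levels overlapped.

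**Figure D4:**
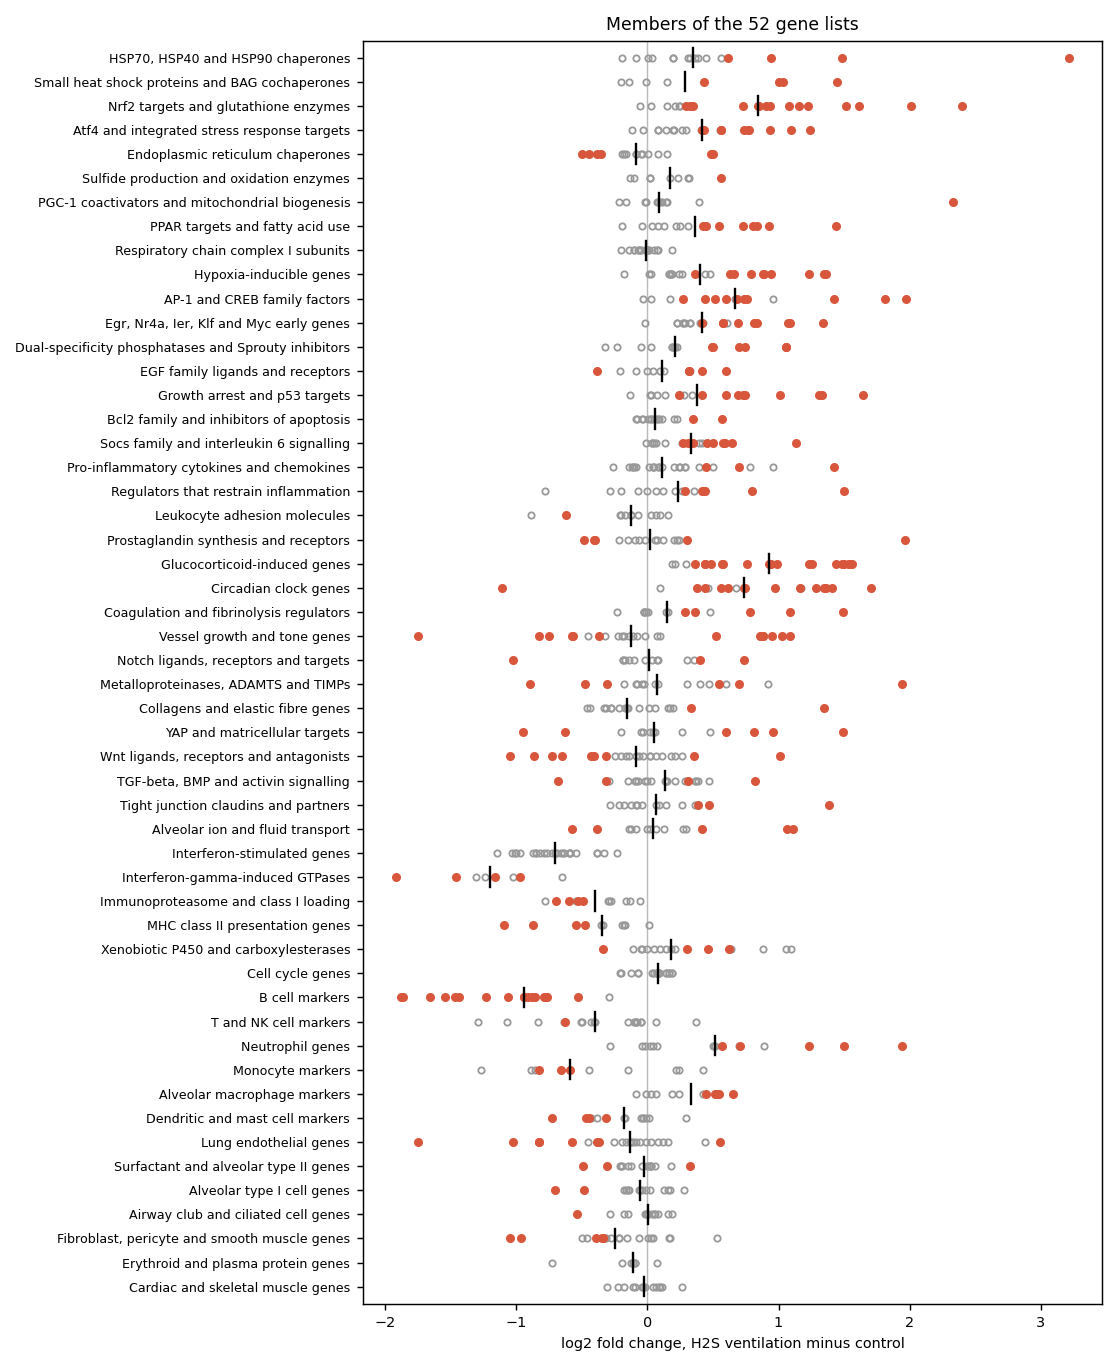
Log2 fold change of H2S ventilation minus control for each measured member of the 52 gene lists, with filled points at an adjusted p under 0.05 and a bar at the list median. B cell markers lay left of 0 and glucocorticoid-induced genes right of it.

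Some of the changes from control also separated H2S ventilation from air ventilation. Between the 2 ventilated groups 16 of 19934 genes differed at an adjusted p under 0.05 (0.0803%). Of the 159 genes called higher against control 11 also differed from air with limma by a test of the difference itself. There were 85 at an unadjusted p under 0.05, beside 1177 of all 19934 genes (5.9%), and 47 with CyberT. The 159 were chosen as high in the same 5 H2S mice, which by itself raises such counts. The 11 were Hspa1a, Ppargc1a, Atf3, Ptgs2, Depp1, Plk3, Noct, Dnajb1, Gadd45a, Chac1 and Fam110c. Ppargc1a differed by 2.22 ± 0.18 (adjusted p = 2.8e-05), Atf3 by 1.97 ± 0.16 (adjusted p = 2.98e-05) and Ptgs2 by 1.65 ± 0.19 (adjusted p = 0.000638). The air-ventilated values were 225 to 266 for Ppargc1a, 348 to 595 for Atf3 and 664 to 860.4 for Ptgs2, and none reached the H2S values. Depp1, a gene of autophagy and oxidative stress, differed by 1.37, Plk3 by 1.15, Noct by 1.08 and Gadd45a by 0.95.

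Among the 107 genes called lower against control, 0 passed against air with limma and 0 with CyberT. At an unadjusted p under 0.05 there were 5, beside 5.9% of all genes. Their differences from air ran from -0.784 to 0.243 with a median of -0.113 over the 107. Ms4a1 stood at -1.88 with H2S and -1.82 with air, and Aplnr at -1.75 and -1.55, each against the same 5 control mice. Among the rises, Mmp8 stood at 1.94 and 1.88, and Doc2b at 1.84 and 1.98. An adjusted p that misses the threshold does not show that the 2 gases acted alike.

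**Figure D5:**
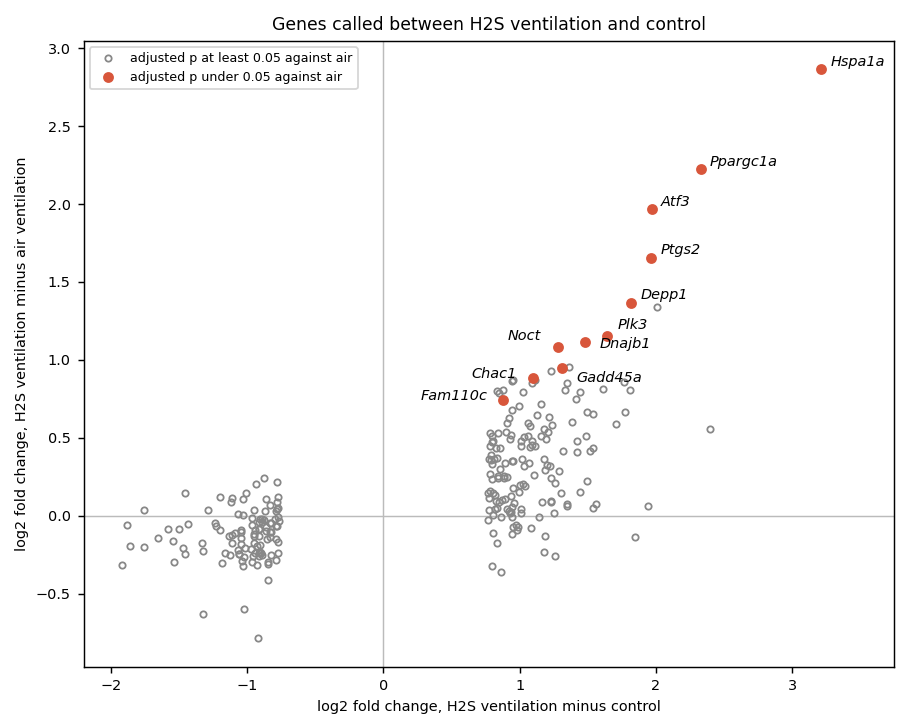
Log2 fold change against control (horizontal) and against air ventilation (vertical) for each gene called between H2S ventilation and control, with the 11 genes at an adjusted p under 0.05 against air filled and named. Genes called lower ran from -0.784 to 0.243 on the vertical axis, with a median of -0.113. Among the open points, Osgin1 lay at 1.34 on the vertical axis (adjusted p = 0.0564).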

How the data were processed

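Whole-transcript Affymetrix arrays were run on lung lobe RNA of 15 mice, 5 per group. The deposited intensities are linear. Per the methods, the authors read images with Command Console, subtracted a GC-dependent background, applied quantile normalization and summarised probes with RMA in Genedata Expressionist Refiner, keeping main and unmapped transcripts of annotation NA32. No source used here names the genome build of the probes. Gene symbols came from the platform table (1617 probes had several symbols, 4964 were unnamed here). All 15 sample columns were used.

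The log2 values of all 15 arrays entered 1 limma fit (version 3.58.1, R 4.3.3, with lmFit, contrasts.fit and eBayes) without covariates, and p-values were adjusted over all 28361 probes. The call needed p up to 0.005, adjusted p up to 0.1 and at least a 1.7-fold change, after the study's thresholds. The methods' CyberT (confidence 15, window 101) was an alternative. Python 3.11.15, pandas 2.3.3 and matplotlib 3.10.9 made tables and plots. For the 52 lists, the probe with the highest mean stood for each gene. Named genes were the 20 largest rises and 20 largest falls among called probes whose groups did not overlap, the members with the smallest p in each list (4 at most) and genes named by the study. Only some of them are described. Fam110c was named after its values were seen. Members and lists were chosen with earlier results of these data known. The limma step was tested on simulated data. The number of arrays limits the precision.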

Additional observations from a re-analysis of the deposited data

Results flagged for a closer look

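Of 284 groups of 5 mice examined for the genes described, 14 held 1 mouse far from its group, where chance gives about 1 in 20. The values below are that mouse's gap to its nearest neighbour as a share of the whole range of log2 intensities in the group, and no cause was tested. Among controls, the mouse with running number 21 stood high for Ifrd1 (gap 0.832, intensity 752 against a median of 604 in the others), Fst (0.729) and Fam110c (0.714) and low for Slitrk6 (0.814). The control with running number 9 stood low for Socs3 (0.828) and Pparg (0.716), and that with running number 1 stood high for Nkd2 (0.804). Among H2S-ventilated mice, that with running number 20 stood high, toward the controls, for Slitrk6 (0.787), Lpcat1 (0.79) and Mmp11 (0.771, intensity 501 against a median of 293). The mouse with running number 12 stood low for Cd2 (0.872) and Pparg (0.745), and the mouse with running number 8 stood high for Socs3 (0.778, intensity 1122 against 689) and Krt79 (0.785).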

How the results depend on the processing

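Leaving out each mouse gave 360 to 525 called probes, 174 to 219 of them higher and 181 to 306 lower, and 1543 to 2479 at an adjusted p under 0.05, beside 410, 186, 224 and 2228. With the mice of running numbers 1 to 12 alone, 1032 probes had an adjusted p under 0.05, and with running numbers 20 to 28 alone, 2 mice a group, 9 were called, 7 higher and 2 lower, and 2 had an adjusted p under 0.05. A t-test without variance moderation, which used the 10 control and H2S arrays alone, passed 1265. Limma on the same 10 arrays passed 1752. Fewer mice entered each of these fits, and the causes of the lower counts were not tested further. The other alternatives with all control and H2S mice gave 353 to 506 called probes, and running numbers 1 to 12 alone 557. None of the 142 genes examined changed direction under any of the 25 alternatives that gave it a value. With the dimmest 25% of probes left out, 140 genes had a value. Most of the 142 were picked by their results in these same arrays, so a kept direction is little support. Without variance moderation 21 of the 142 lost an adjusted p under 0.05. Running numbers 1 to 12 alone lost 16, and 20 to 28 alone 141. With CyberT 47 of the 159 called higher genes differed from air, beside 11 with limma, and 18 of 25 interferon-stimulated genes passed, beside 0. The label-number set as a block gave 435 called probes. H2S and control labels share no number in the same place of the label, but their running numbers can be read in runs of 4 (1 to 4, 5 to 8 and so on). Deviations of the air and H2S mouse of a run correlated at 0.0719, 0.358, 0.236 and 0.306, and those of the control and air mouse at -0.0181 to 0.332. Whether mice of a run share an effect was not tested further. Deviations of the control and H2S mouse of a run correlated at 0.135, -0.179, 0.333 and 0.184, so the runs were not taken as pairs. As a replicate block, an alternative chosen after seeing the data in which the H2S mouse numbered 20 adds nothing, they gave 484 called probes, 397 of them among the 410, and 2164 at an adjusted p under 0.05.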
